A study of Arabidopsis thaliana with 9 samples.

Results

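The cytosolic 40S ribosomal subunit is the part of the ribosome that binds messenger RNA and reads its codons. The genes described here are 60 Arabidopsis thaliana genes for 24 proteins of that subunit, given as a list of locus codes that was drawn up with earlier results of these data known. Of these, 32 genes for 18 proteins had a probe set that names only that gene, and each of the 32 had exactly 1 such probe set. They are 32 of 13286 genes with a probe set of their own, on an array with 22746 tested probe sets. A further 10 genes were found only on probe sets naming several genes, and 18 had no probe set named here. The proteins SA, S5, S6, S16, S18 and S23 are therefore not analysed here, and neither are those 28 genes.

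RNA was measured on 9 one-colour Affymetrix arrays of whole seedlings grown in the dark for 10 days, 3 arrays for each of 3 lines. The lines were L17, which the labels call a phyA' line, sps1, and wild type of the accession Col-0. Col-0 is given as the background of every line. No source used here says what L17 or sps1 carries, how either line was made, or whether the arrays of one line stand for different sowings. The p-values thus reflect the spread among these 9 arrays alone, which may be technical. PhyA is phytochrome A, the light receptor that is abundant in dark-grown seedlings.

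Ribosomal proteins assemble on ribosomal RNA in the nucleolus, and the small subunit is finished in the cytosol. Its proteins lie in the head, the body and the platform, between which the messenger RNA is threaded. In Arabidopsis most of them come from small families of nearly identical genes, here called paralogs, whose messages together supply 1 position in the ribosome. Loss of single paralogs, such as those of S13 and S18, is known for pointed first leaves and slowed growth. Ribosomal protein messages are abundant where cells grow and divide.

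The authors' signals were already scaled to a common mean on each array. Values below are those signals, and changes are differences of log2(signal + 16) with the SE of a limma model fitted to all 9 arrays. A change was called at a Benjamini-Hochberg adjusted p under 0.05 over all 22746 probe sets. Signals depend on the probes of a gene, so the signals of different genes are not set against each other. In whole seedlings, fewer cells of a type and less RNA per cell cannot be told apart.

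Wild type replicate 3 stood apart from the other arrays. Across probe sets its log2 signals correlated at 0.954 with both other wild type arrays, which correlated at 0.986 with each other and at 0.953 to 0.965 with L17 and sps1 arrays, whereas replicate 3 correlated at 0.921 to 0.930 with arrays of L17 and sps1. The 2 of 10 listed small heat shock genes measured here, AT2G29500 and AT1G53540, summed to 222 to 293 in L17, 260 to 479 in sps1, and 323, 288 and 17339 in wild type. Counts of called genes, medians of gene lists and calls are therefore also given without it, as are changes that it moved by over 1.5 times. The ratio of 3' to 5' probe sets, a measure of RNA completeness, for the first ubiquitin pair averaged 2.32 ± 0.103 in L17, 2.49 ± 0.066 in sps1 and 1.85 ± 0.0915 in wild type (SD, n = 3). Against wild type each line gave an exact two-sided permutation p of 0.1, and 3 against 3 arrays allow none smaller. A second ubiquitin pair averaged 1.14 ± 0.113 in L17, 1.22 ± 0.213 in sps1 and 1.05 ± 0.191 in wild type, with overlapping arrays. Of 1 actin and 2 GAPDH pairs compared, only the first GAPDH pair was separate from wild type, in sps1, at 1.70 ± 0.167 against 1.42 ± 0.112. The part of RNA completeness in the results was not tested. Of 2 genes listed for dark-grown seedlings, only PORB, a light-dependent protochlorophyllide oxidoreductase, was measured. It had 4054 to 5188 in L17, 3596 to 4669 in sps1 and 1673 to 2730 in wild type. The signal of PORB alone does not mark seedlings as dark-grown. PORB was called higher in both lines (1.19 and 1.08, limma adjusted p = 0.00932 and 0.0111 for L17 and sps1 against wild type, and 0.0233 and 0.0274 without wild type replicate 3). Its part in the results was not tested. Of 10 seed storage and oil body genes 1 was measured, the oleosin AT3G01570, at 42.6 to 273 in L17, 70.2 to 240.4 in sps1 and 153 to 1068 in wild type. Of 13 genes of dividing cells 1 was measured, PRL, a replication licensing factor, at 143 to 179 in L17, 85.8 to 133 in sps1 and 45.3 to 158 in wild type.

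The 40S genes lay higher as a group in both lines than in wild type, by small amounts that mostly did not pass the test gene by gene, and the group as such was not tested. The 32 signals summed to 97577, 95385 and 94681 on the L17 arrays, 100551, 99096 and 102067 on the sps1 arrays, and 83622, 81852 and 68008 on the wild type arrays. The sums of the lines did not overlap with those of wild type. With each gene set relative to its own mean over the 9 arrays, the median gene stood at 0.15, 0.11 and 0.10 on the L17 arrays, 0.10, 0.08 and 0.14 on the sps1 arrays, and -0.08, -0.15 and -0.45 on the wild type arrays (log2). The deepest of these values belonged to wild type replicate 3, which was the lowest wild type array for 27 of the 32 genes and the lowest of all 9 arrays for 23. The other wild type arrays were also below every array of L17 and sps1 in this median.

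**Figure D1:**
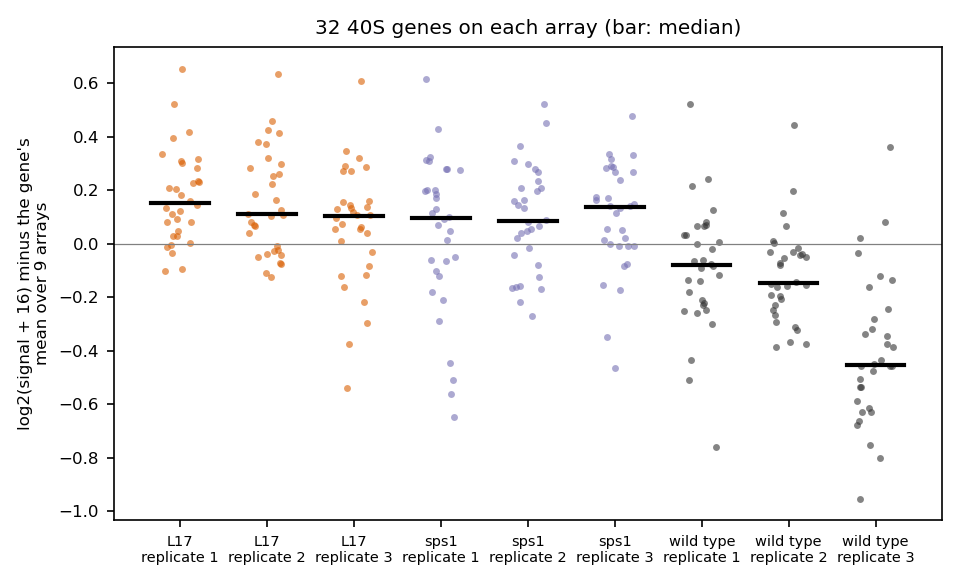
Each point is 1 of the 32 genes on 1 array, as log2(signal + 16) minus that gene's mean over the 9 arrays, and black bars are medians. The 6 arrays of L17 and sps1 have medians between 0.08 and 0.15, above all wild type arrays, and wild type replicate 3 is lowest at -0.45.

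The mean signals of the 32 genes over the 9 arrays ranged between 11.7 and 11507, with a median of 1884. The median signal of a whole array was 138 to 156. The shares of all probe sets given as background thus come from mostly dimmer probe sets, and a background of like brightness was not computed. Replicate arrays of a gene differed by a median coefficient of variation of 10.7% in L17, 10.6% in sps1 and 14% in wild type. Only 3 genes had mean signals under 100: AT2G39590 for S15A, AT5G59240 for S8 and AT4G30800 for S11. The added 16 shrinks changes most in these 3.

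**Figure D2:**
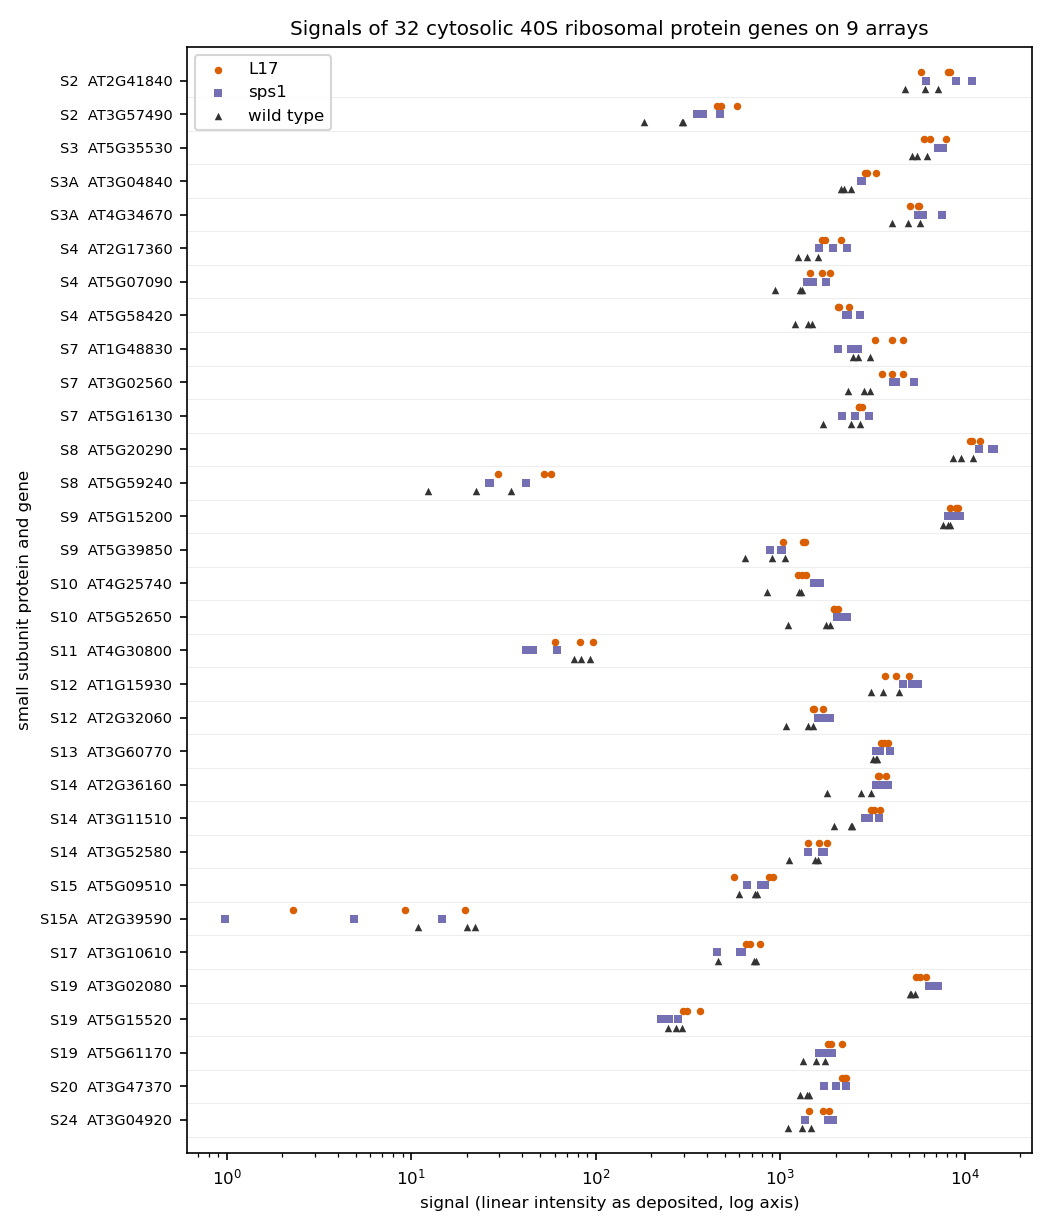
Signals of the 32 genes on every array, on a log axis, with L17 as circles, sps1 as squares and wild type as triangles, ordered by protein. For most genes the leftmost of the 9 points is a triangle, while for AT4G30800 (S11) the squares lie left of the triangles.

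In L17 against wild type the question was how the line named for phyA' differed from its Col-0 background. Of the 32 genes 4 rose and none fell, and 28 were not called. The 4 were AT3G47370 (S20), AT5G58420 (S4), AT3G57490 (S2) and AT3G11510 (S14). This is 12.5% of the 32 genes, where 5.32% of all probe sets were called higher and 6.12% lower. Without wild type replicate 3, 3 of the 32 were called higher, beside 5.24% of all probe sets called higher and 6.17% lower, and AT3G11510 was lost. At an unadjusted p under 0.05, 11 were higher and none lower, beside 13.4% and 12.3% of all probe sets. These counts were 8 and 0 without wild type replicate 3, beside 2941 and 2821 of the 22746 probe sets.

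The shift of the group as a whole was wider than its calls. The median change of the 32 genes was 0.29, a fold of 1.23, beside 0.01 over all probe sets, and 30 of the 32 had positive changes. Leaving out wild type replicate 3 gave a median of 0.19, beside 0.04 over all probe sets, with 29 positive changes. On 16 genes all L17 arrays lay above all wild type arrays, and on none below, where 16.6% of all probe sets were separate upwards and 14.5% downwards. With only the other two wild type arrays these were 17 genes upwards, beside 23.8% of all probe sets, and 1 downwards, beside 19.5%. In a fit of the L17 and wild type arrays alone 1 of the 32 genes was called higher, AT3G47370. The share of all probe sets called in that fit was not counted.

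In sps1 against wild type, which asks how sps1 differed from the same Col-0 plants, 3 of the 32 genes rose, none fell and 29 were not called. The 3 were AT5G58420 (S4), AT3G02560 (S7) and AT3G47370 (S20). The share called higher was 9.38%, beside 6.68% of all probe sets called higher and 7.94% lower, which is near the background. Without wild type replicate 3 the same 3 genes were called, and none lower, beside 6.57% and 8.4% of all probe sets. At an unadjusted p under 0.05, 15 were higher and 1 was lower, beside 13.5% and 14.9% of all probe sets. These counts fell to 8 higher and rose to 2 lower without wild type replicate 3, beside 3066 and 3417 of the 22746 probe sets.

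The median change in sps1 was 0.38, a fold of 1.30, beside -0.01 over all probe sets, and 27 of 32 changes were positive. Leaving out wild type replicate 3 gave a median of 0.25, beside 0.02, with 25 positive changes. All sps1 arrays lay above all wild type arrays for 16 genes and below for 1, AT4G30800, where 16.5% of all probe sets were separate upwards and 16.9% downwards. With only the other two wild type arrays they were 17 genes upwards and 3 downwards, beside 22.9% of all probe sets in each direction. Centring every array on its median moved the median of all probe sets to 0.10 and that of the 40S genes to 0.49, a shift of every gene alike. L17 and sps1 were compared with the same wild type arrays, so likeness between the changes of these lines is not independent evidence.

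**Figure D3:**
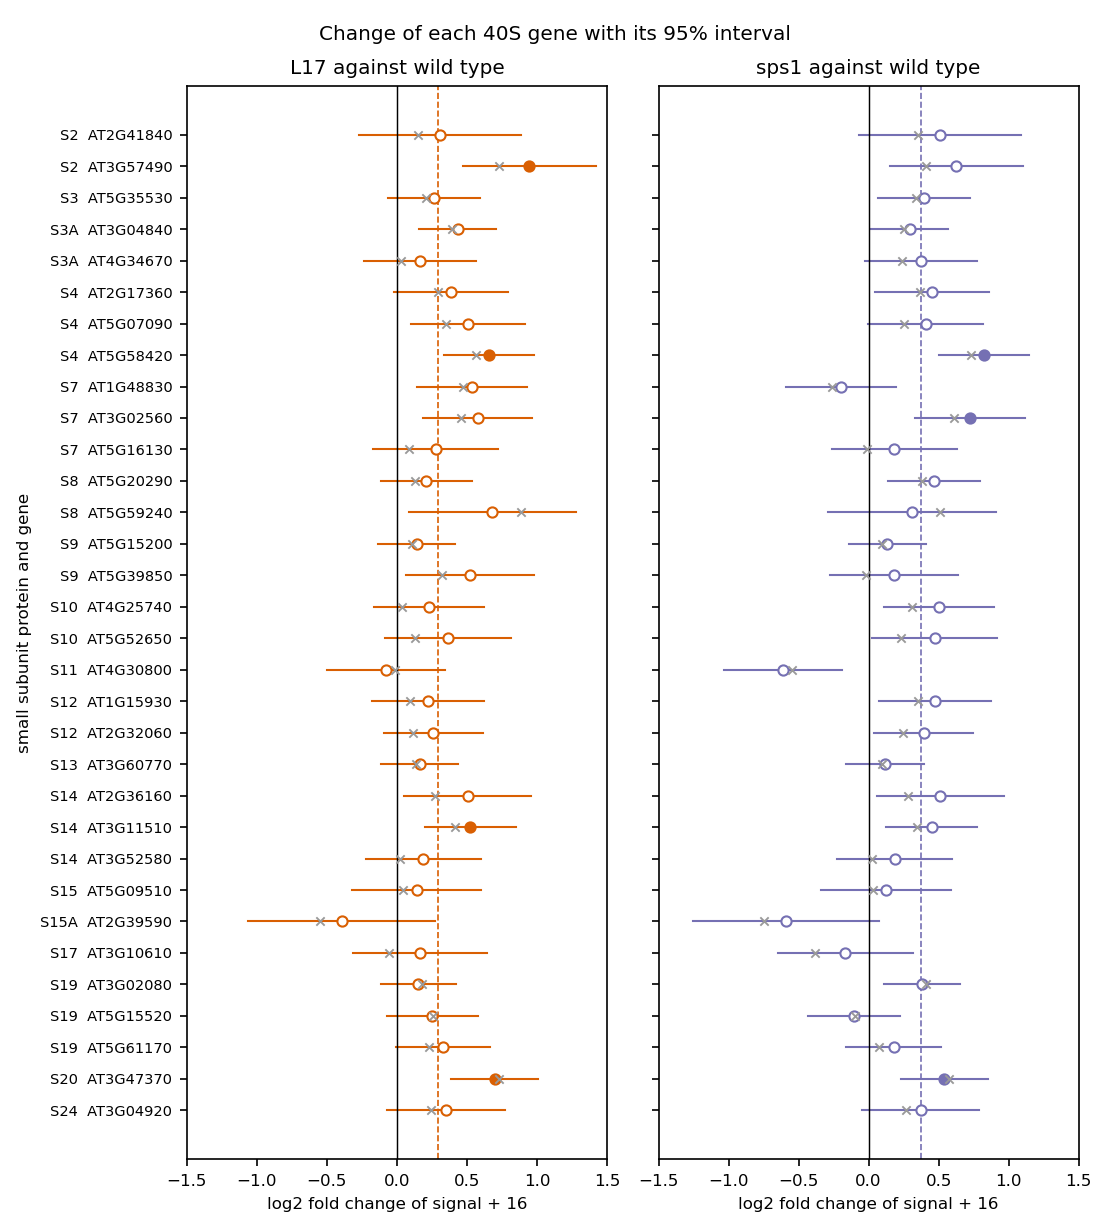
Log2 changes of signal + 16 for each gene in L17 (left) and sps1 (right) against wild type, with 95% intervals. Filled points were called, open ones were not, grey crosses are the values without wild type replicate 3, and dashed lines are the medians of 0.29 and 0.38. Most points lie right of 0 and most crosses lie nearer to 0 than their points.

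In sps1 against L17 the 40S genes had a median change near 0. None of the 32 was called higher and 1, AT1G48830 for S7, fell, beside 3.14% of all probe sets called higher and 3.72% lower. The median change was -0.01, beside -0.02 over all probe sets, with 14 positive changes. Arrays were separate upwards for 2 genes and downwards for 5, beside 13.7% and 17% of all probe sets. At an unadjusted p under 0.05, none was higher and 3 were lower, beside 9.18% and 11.2% of all probe sets. These counts were 1 and 3 without wild type replicate 3, beside 2542 and 3247 of the 22746 probe sets. Wild type arrays enter this comparison only through the estimate of the spread. Without replicate 3 of wild type the counts of called genes among the 32 were again 0 and 1, while 5.06% of all probe sets were called higher and 6.48% lower.

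S7 is a protein of the body that is found in eukaryotes and not in bacteria, and its 3 measured paralogs had unlike changes in sps1. AT1G48830 had 2056, 2434 and 2636 in sps1, 4633, 4038 and 3279 in L17, and 3076, 2626 and 2479 in wild type. Every sps1 array was below every L17 array, while sps1 and wild type overlapped. The change in sps1 against L17 was -0.74 ± 0.17, a fold of 0.60 (limma adjusted p = 0.0381). Against wild type the changes of AT1G48830 were 0.54 ± 0.17 in L17 and -0.20 ± 0.17 in sps1, neither of them called (limma adjusted p = 0.0851 and 0.506). All L17 arrays of this gene lay above all wild type arrays. The call in sps1 against L17 was lost without wild type replicate 2, at a limma adjusted p of 0.0605. It was also lost with L17 replicate 1 or 2, or any of the 3 sps1 replicates, left out, at limma adjusted p values of 0.0715 to 0.127, with changes of -0.81 to -0.62.

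AT3G02560, the second S7 gene, had 4233, 5293 and 4084 in sps1, 4648, 3575 and 4033 in L17, and 3069, 2830.4 and 2316 in wild type. Here both lines were above wild type on every array. The change in sps1 was 0.72 ± 0.17, a fold of 1.65 (limma adjusted p = 0.0239), and in L17 it was 0.58 ± 0.17 and not called (limma adjusted p = 0.0661). The call in sps1 stood at a limma adjusted p of 0.04995 without wild type replicate 3, with a change of 0.61. It was lost without wild type replicate 2 (0.0541), sps1 replicate 1 (0.0527) or sps1 replicate 2 (0.0841). The third S7 gene, AT5G16130, had 2153, 3027 and 2528 in sps1, 2784, 2682 and 2687 in L17, and 2722, 2409 and 1713 in wild type, and its lines overlapped with wild type. Its changes were 0.28 ± 0.20 in L17 and 0.18 ± 0.20 in sps1, and without wild type replicate 3 they were 0.09 and -0.01.

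The balance between S7 paralogs was then compared within arrays. The log2 ratio of AT1G48830 to AT3G02560 differed in sps1 by -0.92 ± 0.16 from wild type and by -0.88 ± 0.20 from L17, in each case with all sps1 arrays below all others (exact two-sided permutation p = 0.1, the smallest possible). Leaving out an array cannot undo such a separation. With single arrays left out the difference from wild type was -1.07 to -0.83, and it was -0.87 without wild type replicate 3. In L17 the same ratio differed from wild type by -0.04 ± 0.15, with overlapping arrays. The ratio of AT3G02560 to AT5G16130 was higher in sps1 than in wild type by 0.54 ± 0.11, again on separate arrays (exact permutation p = 0.1).

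**Figure D4:**
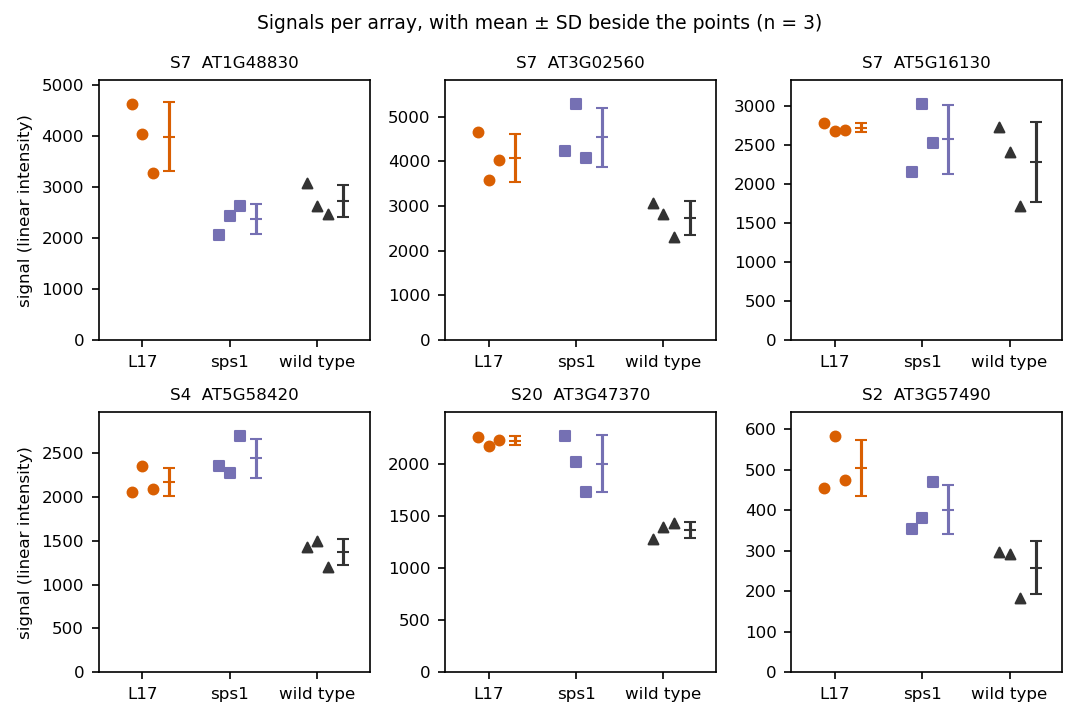
Signals of the 3 S7 genes and of AT5G58420 (S4), AT3G47370 (S20) and AT3G57490 (S2) on each array, with mean ± SD beside the points (n = 3). In AT1G48830 the sps1 points lie with wild type and below L17, whereas in AT3G02560, AT5G58420, AT3G47370 and AT3G57490 both lines lie above wild type.

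S4, another body protein that bacteria lack, includes AT5G58420, which had the smallest adjusted p of the 32 genes in any comparison. AT5G58420 had 2056, 2348 and 2092 in L17, 2344, 2271 and 2691 in sps1, and 1422, 1491 and 1198 in wild type. All arrays of both lines were above all wild type arrays. In sps1 the change was 0.82 ± 0.14, a fold of 1.77 (limma adjusted p = 0.00545), and the call held with each of the 9 arrays left out, at limma adjusted p values of 0.00965 to 0.0264. In L17 it was 0.66 ± 0.14 (limma adjusted p = 0.0189), and the call was lost without L17 replicate 2 (limma adjusted p = 0.075). Without wild type replicate 3 the changes were 0.73 in sps1 and 0.56 in L17.

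The paralogs AT2G17360 and AT5G07090 of S4 were not called in any comparison. AT2G17360 had 1749, 2145 and 1675 in L17, 2313, 1623 and 1931 in sps1, and 1610.2, 1397 and 1244 in wild type, with both lines above wild type on every array. AT5G07090 had 1690.3, 1871 and 1449 in L17, 1391, 1508 and 1764 in sps1, and 1309.8, 1285 and 934 in wild type, also separate. The changes of AT2G17360 were 0.39 ± 0.18 in L17 and 0.45 ± 0.18 in sps1, and those of AT5G07090 were 0.51 ± 0.18 and 0.41 ± 0.18. With wild type replicate 3 left out, those of AT5G07090 were 0.35 and 0.25. The log2 ratio of AT5G07090 to AT5G58420 was lower in sps1 than in wild type, with a difference of -0.42 ± 0.09 on separate arrays (exact permutation p = 0.1). This difference was -0.48 without wild type replicate 3.

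S20 sits in the head of the subunit, and its measured gene AT3G47370 rose in both lines. Its signals were 2261, 2172 and 2231 in L17, 2268, 2014 and 1727 in sps1, and 1275, 1390.2 and 1429.6 in wild type. The L17 arrays were within a coefficient of variation of 2.03%, the closest replicates of that line among the 32 genes, and all arrays of both lines were above wild type. The change was 0.70 ± 0.14 in L17 (limma adjusted p = 0.013) and 0.54 ± 0.14 in sps1 (limma adjusted p = 0.0301). For this gene wild type replicate 3 was the highest wild type array, and without it the changes were 0.73 and 0.57, both called (limma adjusted p = 0.0177 and 0.0345). The call in L17 held with each of the 9 arrays left out. The call in sps1 was lost with replicate 1 or 2 of any of the 3 lines left out, at limma adjusted p values of 0.0504 to 0.0949.

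S2 lines the channel through which messenger RNA enters, and of its 2 measured genes AT3G57490 had the highest change of all 32 in L17 with all arrays. Its signals were 454, 583 and 475 in L17, 353, 381 and 469.5 in sps1, and 298, 293 and 183 in wild type, with both lines above wild type on every array. The change was 0.95 ± 0.21 in L17, a fold of 1.93 (limma adjusted p = 0.022), and 0.63 ± 0.21 in sps1, where it was not called (limma adjusted p = 0.082). Without wild type replicate 3 these were 0.73, still called (limma adjusted p = 0.0308), and 0.41. The call in L17 was lost without L17 replicate 1 (0.0505), 2 (0.083) or 3 (0.057). AT2G41840, its paralog, had 8128, 8362 and 5825 in L17, 10987, 6146 and 8924 in sps1, and 7159, 6099 and 4754 in wild type. Both lines overlapped with wild type there, and the changes of 0.31 ± 0.25 and 0.51 ± 0.25 were not called and came to 0.15 and 0.35 without wild type replicate 3. The log2 ratio of AT2G41840 to AT3G57490 differed in L17 by -0.64 ± 0.18 from wild type, with L17 lower on every array (exact permutation p = 0.1). This difference was -0.78 to -0.51 with single arrays left out.

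S14 belongs to the platform, near where messenger RNA leaves the subunit. AT3G11510 had 3091, 3226 and 3462 in L17, 3447, 3015 and 2864 in sps1, and 2416, 2455 and 1950.3 in wild type, with both lines above wild type. The change was 0.52 ± 0.14 in L17, just inside the threshold (limma adjusted p = 0.0491), and 0.45 ± 0.14 in sps1, just outside it (limma adjusted p = 0.0687). The call in L17 was lost with any one of the 9 arrays left out, at limma adjusted p values of 0.0587 to 0.135. Its paralog AT2G36160 had 3389.6, 3763 and 3427 in L17, 3287, 3505 and 3827 in sps1, and 3091, 2735 and 1790.4 in wild type, likewise separate, and its changes of 0.51 ± 0.20 and 0.51 ± 0.20 were not called. Wild type replicate 3 was far below the other wild type arrays for AT2G36160, and without it the changes were 0.28 in L17 and 0.28 in sps1. The third gene, AT3G52580, had 1802, 1622 and 1409 in L17, 1406, 1719 and 1693 in sps1, and 1609, 1544 and 1112 in wild type, with overlap, and its changes of 0.19 ± 0.18 and 0.19 ± 0.18 came to 0.02 and 0.02 without that array.

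The genes with the lowest changes against wild type were dim. AT4G30800 for S11, a body protein, had 41.7, 62.1 and 45.8 in sps1, 82.2, 97.4 and 60.2 in L17, and 83, 76.2 and 93.3 in wild type. All sps1 arrays were below all wild type arrays, and L17 overlapped with both. The change in sps1 was -0.61 ± 0.19 with a 95% interval of -1.04 to -0.19 (limma adjusted p = 0.0594), the lowest of the 32 in that comparison, and it passed the threshold without L17 replicate 3 (0.0436). In L17 the change was -0.08 ± 0.19, or -0.01 without wild type replicate 3. AT2G39590 for S15A had 19.5, 9.25 and 2.3 in L17, 0.984, 14.7 and 4.9 in sps1, and 22.2, 20.2 and 11 in wild type, levels at which the added 16 exceeds most signals. Its changes of -0.39 ± 0.29 in L17, the lowest there, and -0.59 ± 0.29 in sps1 were not called. The other 5 listed S15A genes are not analysed here.

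Among the remaining body and platform proteins no gene was called, and averages are mean ± SD over 3 arrays. AT3G60770 for S13 had 3508, 3668 and 3854 in L17, 3938, 3458 and 3298 in sps1, and 3353, 3314 and 3184 in wild type, with L17 above wild type on every array and changes of 0.16 ± 0.12 and 0.11 ± 0.12 in L17 and sps1. The 95% intervals of these changes were -0.12 to 0.44 and -0.16 to 0.39. For S3A, at the messenger RNA exit, AT3G04840 had 2945, 2872 and 3325 in L17, 2752, 2768 and 2756 in sps1, and 2415, 2209 and 2129 in wild type. Its lines were both separate from wild type, and the change in L17 of 0.43 ± 0.12 just missed the threshold (limma adjusted p = 0.0525). The other S3A gene, AT4G34670, averaged 5451 ± 324 in L17, 6352 ± 1043 in sps1 and 4910.1 ± 865 in wild type, with changes of 0.16 ± 0.18 and 0.37 ± 0.18 that were 0.03 and 0.24 without wild type replicate 3.

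AT5G20290 for S8, a body protein, had 10641, 10988 and 12168 in L17, 14099.5, 12014 and 14331 in sps1, and 9584, 11050.3 and 8685 in wild type. All sps1 arrays exceeded all wild type arrays, with a change of 0.47 ± 0.14 (limma adjusted p = 0.0626), while L17 overlapped with wild type at 0.21 ± 0.14, or 0.13 without wild type replicate 3. AT5G59240, the other S8 gene, was dim at 46.4 ± 14.8 in L17, 31.7 ± 8.84 in sps1 and 23.2 ± 11.2 in wild type, and its changes were 0.68 ± 0.26 and 0.31 ± 0.26. They were 0.89 and 0.51 without wild type replicate 3, which made this the highest change of the 32 genes in L17, and it was not called. For S9, a protein that joins the nascent subunit early in yeast and bacteria, AT5G15200 averaged 8815 ± 468 in L17, 8779.9 ± 622 in sps1 and 7988 ± 355 in wild type. Its changes of 0.14 ± 0.12 and 0.13 ± 0.12 were among the smallest of the 32. The second S9 gene, AT5G39850, averaged 1239.5 ± 178 in L17, 971 ± 73.5 in sps1 and 871 ± 213 in wild type, with changes of 0.52 ± 0.20 and 0.18 ± 0.20 that were 0.32 and -0.02 without wild type replicate 3. AT3G04920 for S24 averaged 1663 ± 216 in L17, 1695 ± 298 in sps1 and 1300.4 ± 183 in wild type, with changes of 0.35 ± 0.18 and 0.37 ± 0.18 and overlapping arrays.

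Among the other proteins of the head no gene was called either. S3, at the messenger RNA entry, had 6499, 6009.7 and 7913 in L17, 7472, 7585 and 7199.9 in sps1, and 5505, 6240.1 and 5193 in wild type for AT5G35530. The sps1 arrays were separate from wild type and the L17 arrays were not, and the changes were 0.40 ± 0.14 and 0.26 ± 0.14. For S10, AT4G25740 had 1525, 1648 and 1604 in sps1, 1372, 1319 and 1254 in L17, and 1268, 1299 and 852 in wild type, and sps1 was above both other lines on every array. Its change in sps1 against L17 of 0.27 ± 0.17 was the highest of the 32 in that comparison and was not called, and against wild type it was 0.50 ± 0.17, or 0.31 without wild type replicate 3. In L17 against wild type AT4G25740 had a change of 0.23 ± 0.17, or 0.03 without that array. AT5G52650, also for S10, averaged 1989 ± 57.4 in L17, 2145 ± 144 in sps1 and 1581 ± 416 in wild type, and its changes of 0.37 ± 0.20 and 0.47 ± 0.20 were 0.13 and 0.23 without that array. With all arrays, both lines were above wild type on every array for AT5G52650.

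S12 lies in the beak of the head. AT1G15930 averaged 4310.4 ± 645 in L17, 5129 ± 468 in sps1 and 3709.8 ± 661 in wild type and AT2G32060 averaged 1585 ± 111 in L17, 1740.0 ± 131 in sps1 and 1332 ± 225 in wild type. Both S12 genes were separate from wild type in sps1, with changes of 0.48 ± 0.18 and 0.39 ± 0.16. In L17 only AT2G32060 was separate, and the changes were 0.22 ± 0.18 and 0.26 ± 0.16. Leaving out wild type replicate 3 gave 0.35 and 0.25 in sps1 and 0.10 and 0.12 in L17. AT5G09510 for S15 averaged 779.7 ± 188 in L17, 758 ± 89.7 in sps1 and 694 ± 80.9 in wild type, and its changes of 0.14 ± 0.20 and 0.13 ± 0.20 were smaller than their errors, and 0.04 and 0.03 without that array. AT3G10610 for S17 averaged 705 ± 63.2 in L17, 562 ± 92.5 in sps1 and 641 ± 157 in wild type. Its changes were 0.16 ± 0.21 in L17 and -0.17 ± 0.21 in sps1, neither of them called, and without wild type replicate 3 they were -0.05 and -0.38, so that the change in L17 turned negative. All its sps1 arrays were below all L17 arrays.

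S19 is needed in yeast and human cells for the maturation of small subunit ribosomal RNA, and it had 3 measured paralogs, none of them called. AT3G02080 had 6414, 6727 and 7139 in sps1, 5727, 5433 and 6181 in L17, and 5034, 5134 and 5395 in wild type, with sps1 highest on every array and L17 above wild type. AT5G15520 had 226, 249 and 278 in sps1, 298, 369.9 and 312 in L17, and 246, 294 and 274 in wild type, and its sps1 arrays were below all L17 arrays and overlapped with wild type. Its L17 arrays were above all wild type arrays. AT5G61170 averaged 1949.9 ± 189 in L17, 1751 ± 147 in sps1 and 1551 ± 205 in wild type. For it L17 was above wild type on every array and sps1 overlapped. The changes in sps1 were 0.38 ± 0.12, -0.10 ± 0.14 and 0.18 ± 0.15 for AT3G02080, AT5G15520 and AT5G61170, and in L17 they were 0.15 ± 0.12, 0.25 ± 0.14 and 0.33 ± 0.15. For AT5G61170 they were 0.08 in sps1 and 0.23 in L17 without wild type replicate 3. The log2 ratio of AT3G02080 to AT5G15520 was higher in sps1 by 0.58 ± 0.14 than in L17 and by 0.48 ± 0.08 than in wild type, on separate arrays in each case (exact permutation p = 0.1). The ratios of either gene to AT5G61170 overlapped between sps1 and wild type.

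The 10 proteins with at least 2 measured genes gave 18 pairs of paralogs. In the 4 proteins with 3 measured genes each gene enters several pairs, so the 18 pairs are not independent. The log2 ratio of a pair was separate between the arrays of L17 and wild type in 3 pairs, of sps1 and wild type in 6, and of sps1 and L17 in 8. Single probe sets were separate in either direction in 31.2%, 33.4% and 30.7% of cases in the same comparisons, and the background for ratios was not computed. Every separate pair had the exact permutation p of 0.1 that 3 against 3 arrays allow at best, so none could pass a threshold of 0.05. Differences were over 0.5 in 1, 2 and 5 of the 18 pairs, the 1 in S2 for L17 against wild type and the 2 in S7 for sps1 against wild type. Nearly identical copies can share signal through their probes, and such sharing was not tested.

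By signal, the 19 genes with mean signals of 1000 to 5000 had median changes of 0.39 in L17 and 0.41 in sps1. The 6 brightest genes, over 5000, had medians of 0.19 and 0.39, and the 4 between 100 and 1000 had medians of 0.21 and 0.01. The 3 under 100 had medians of -0.08 and -0.59. These groups were described without a test, and their medians were not recomputed without wild type replicate 3.

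The cytosolic 60S proteins, which form the large subunit, had medians of a similar size to those of the 40S proteins, a likeness that was not tested. Of 121 listed genes 77 were measured, and their median change was 0.29 in L17 and 0.24 in sps1 against wild type, or 0.21 and 0.17 without wild type replicate 3. In L17, 10 rose and 4 fell, beside 5.32% and 6.12% of all probe sets. In sps1, 12 rose and 3 fell, beside 6.68% and 7.94%. In sps1 against L17 none rose and 4 fell, beside 3.14% and 3.72% of all probe sets, with a median of -0.01. Without wild type replicate 3 the counts were 3 and 4, beside 5.06% and 6.48%. Calls against wild type without that array were 7 higher and 4 lower in L17, beside 5.24% and 6.17% of all probe sets. For sps1 they were 8 higher and 3 lower, beside 6.57% and 8.4%. On that array the median 60S gene stood at -0.34, the lowest of the 9 arrays.

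Genes that act on the small subunit showed single changes. Of 24 listed genes for ribosomal RNA processing and 40S assembly 7 were measured, with no call in L17 and 2 rises in sps1, and medians of 0.21 and 0.25, which were 0.10 and 0.07 without wild type replicate 3. The share called higher was 0% in L17 and 28.6% in sps1, beside 5.32% and 6.68% of all probe sets. Against L17 it was 14.3% in sps1, beside 3.14%. DIM1A, which methylates small subunit ribosomal RNA, had 1257, 1321 and 1133 in sps1, 856, 757 and 767 in L17, and 848, 889 and 819 in wild type. All its sps1 arrays were above all others, with changes of 0.63 ± 0.12 against L17 and 0.53 ± 0.12 against wild type (limma adjusted p = 0.0186 and 0.0222), and it was the only call of the 7 in sps1 against L17. PRH75, a nucleolar RNA helicase, averaged 1608 ± 142 in L17, 2099 ± 259 in sps1 and 1384 ± 90 in wild type and rose in sps1 by 0.59 ± 0.14 (limma adjusted p = 0.024). Both kept their calls in sps1 against wild type without wild type replicate 3 (limma adjusted p = 0.0370 and 0.0445). DIM1A also kept its call against L17 (limma adjusted p = 0.0131).

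Initiation factors load the 40S subunit with its first transfer RNA and the messenger RNA. Of 28 listed genes 7 were measured, of which 1 rose in L17 and 2 in sps1, none fell, and medians were 0.34 in both. Shares called higher were 14.3% and 28.6%, beside 5.32% and 6.68% of all probe sets. Against L17 the share was 14.3% in sps1, beside 3.14%. Without wild type replicate 3 the counts were the same, and the medians were 0.33 in L17 and 0.36 in sps1. AT2G40290, listed for the alpha subunit of eIF2, had 894, 866 and 1277 in L17, 1238, 1175 and 1120.5 in sps1, and 539, 575 and 499.6 in wild type, and both lines were separate from wild type. It rose by 0.87 ± 0.17 in L17 and 1.11 ± 0.17 in sps1 (limma adjusted p = 0.0121 and 0.00311), and kept both calls without wild type replicate 3 (0.0279 and 0.00786). AT4G20980, listed for an eIF3 subunit, averaged 894 ± 137 in L17, 1243 ± 210.2 in sps1 and 604 ± 216 in wild type. It rose in sps1 by 1.08 ± 0.28 (limma adjusted p = 0.0343, and 0.0338 without wild type replicate 3). AT1G36730, listed for eIF5, averaged 1803 ± 105 in L17, 2904 ± 71.1 in sps1 and 2375 ± 351 in wild type. It was the only call of the 7 in sps1 against L17, at 0.68 ± 0.14 (limma adjusted p = 0.0213, and 0.00686 without wild type replicate 3). Of 10 genes of the TOR kinase pathway, which drives ribosome production, only RAPTOR1 and RAPTOR2 were measured and neither was called in any comparison.

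The small subunit of the plastid ribosome, whose genes lie in part in the plastid genome, had larger changes. Of 14 listed plastid genes 8 were measured, and 6 rose in L17 and 4 in sps1, with medians of 1.34 and 0.87. None fell, and the shares called higher were 75% and 50%, beside 5.32% and 6.68% of all probe sets. The highest change in L17 was that of rps18 and in sps1 that of rps4. Signals of rps4 were 9844, 8796 and 13555 in L17, 14209, 14199 and 15213 in sps1, and 4619, 5000.1 and 3034 in wild type. Signals of rps18 were 698, 746 and 891 in L17, 554, 809 and 900.0 in sps1, and 279, 198 and 149 in wild type. Both were separate from wild type in both lines, with changes of 1.35 ± 0.22 and 1.86 ± 0.25 in L17 and 1.81 ± 0.22 and 1.79 ± 0.25 in sps1 (limma adjusted p = 0.0064, 0.00243, 0.00113 and 0.0021). rps15 rose in L17 by 1.42 ± 0.22 (limma adjusted p = 0.00494), and rps3 rose by 0.94 ± 0.20 in L17 and 1.08 ± 0.20 in sps1 (limma adjusted p = 0.018 and 0.00769). rps14 and rps16 were not called in either line. Without wild type replicate 3, 5 rose in L17 and 4 in sps1, beside 5.24% and 6.57% of all probe sets. The medians were then 1.11 and 0.77, and rps2 was the gene lost in L17. These genes were not compared with the cytosolic ones by a test.

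**Figure D5:**
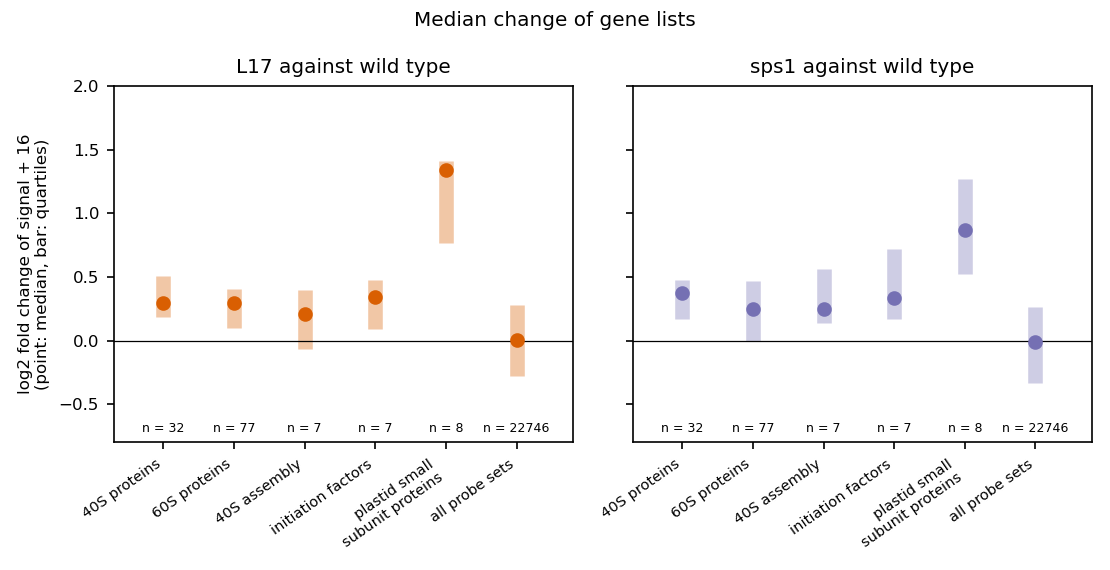
Points are median log2 changes of signal + 16 against wild type and bars are quartiles, for the 32 genes of the 40S subunit, the other gene lists and all 22746 probe sets. The 40S and 60S medians lie between 0.24 and 0.38, the plastid small subunit at 1.34 in L17 and 0.87 in sps1, and all probe sets near 0.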

How the data were processed

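RNA of 10-day dark-grown seedlings of L17, sps1 and wild type was measured on 9 one-colour Affymetrix arrays, 3 per line, grouped by the genotype label. The deposited values are linear intensity signals per probe set, made by the authors with GCOS, per the submitters' processing notes. Of the summary algorithm, scaling target, detection calls and genome build, each was not given in the sources used here. After trimming 2% at each end, the mean of the deposited signals was equal on all arrays, so a shift of all transcripts together would be scaled away. The number of arrays limits the precision.

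Of 22810 probe sets, 64 controls were left out, and 22746 were tested. Probe sets were named by the platform annotation: 13513 name 1 gene, 503 several, and 8730 are unnamed here. All 60 listed genes matched the RefSeq gene table of assembly TAIR10.1. Signals were taken as log2(signal + 16) and fitted over all 9 arrays, without a block, with limma 3.58.1 in R 4.3.3 (lmFit and eBayes). Benjamini-Hochberg adjustment ran over all tested probe sets, at a threshold of 0.05. Paralog ratios were compared by exact two-sided permutation tests (scipy 1.17.1, Python 3.11.15). The fit was tested on simulated data. No 2 arrays held identical values, and 0 columns of other samples were present.

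The members and lists were chosen with earlier results of these data known. Values are given for called members and their paralogs, for the extremes of each comparison, for S13 and S15A, and for up to 4 genes of lowest adjusted p in each further list, and the other members are described as well. Alternatives were the added constant, quantile normalization, median centring, leaving out dim probe sets, array weights, trended robust moderation, fits of 2 lines, a replicate block, a fold threshold, a stricter p and leaving out each array.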

Additional observations from a re-analysis of the deposited data

How the results depend on the processing

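The medians of the 32 genes stayed positive in L17 and sps1 against wild type under all alternatives run, whereas the counts of called genes moved. Against wild type, 7 genes were called higher in L17 and 7 in sps1 with 64 added to the signal, 7 and 8 among probe sets with a mean signal of at least 64 (with 1 lower in sps1), 8 and 11 with trended robust moderation, 1 and 1 in fits of 2 lines, 0 and 1 with limma's treat at a fold of 1.2, and 0 and 1 at an adjusted p under 0.01. Median centring gave 9 higher in sps1. In sps1 against L17, 0 were lower with 1 added, with median centring, with treat or at an adjusted p under 0.01, and 2 with array weights, while the median was -0.045 with quantile normalization and 0.078 with median centring. With the replicate block, 1 gene was higher in L17, 2 in sps1 and 0 were lower in sps1 against L17. The shares of all probe sets called under these alternatives were not counted, so these counts have no background beside them. Deviations of same-numbered arrays correlated at r of -0.079 to 0.059, beside -0.118 to 0.099 for differently numbered ones. With 3 arrays per line this does not tell whether the numbers pair the samples. The cause of these moves was not tested.

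With each array left out in turn, genes higher in L17 numbered 1 to 3 (median 0.19 to 0.39), those higher in sps1 1 to 3 and lower 0 to 1 (median 0.25 to 0.42), and those lower in sps1 against L17 0 to 1 (median -0.048 to -0.0056). Separate paralog ratios numbered 4 to 9, 6 to 8 and 8 to 11 in the same order, where 2 arrays separate more easily than 3. For the called genes, shares of all probe sets were counted only without wild type replicate 3. Of 160 alternative values for the 8 called changes, 55 (34.4%) lost the call and none turned sign. This check covered 37 changes, in genes of proteins with a call, of S11, S13 and S15A, and in AT4G25740. Members outside it were not counted. Of these, AT3G10610 in L17 and AT5G39850 in sps1 turned negative without wild type replicate 3. Among 578 alternative values for the uncalled changes in the check, 23 passed the threshold and 4 turned sign. The 4 were uncalled: AT4G30800 in L17 against wild type, 0.065 with array weights and -0.21 to 0.079 with single arrays left out, the positive value without L17 replicate 3, AT5G16130 in sps1 against wild type, -0.0091 to 0.32, negative without wild type replicate 3, and AT5G16130 in sps1 against L17, -0.22 to 0.025, positive without sps1 replicate 1. Each gene had 1 probe set, so another choice of probe set gave no other value, and promoter motifs were not run. Signals near the added 16 limit what AT2G39590, AT5G59240 and AT4G30800 can show. The counts of genes with arrays separate upwards were 16 in each line. They were recounted without wild type replicate 3, an alternative chosen after seeing the data, and were 17 in each. Leaving out an array cannot lower such a count. Over all probe sets the share separate upwards went from 16.6% to 23.8% in L17 and from 16.5% to 22.9% in sps1.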
